A study of Tegula funebralis with 16 samples.

Results

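HSP90 and small heat shock protein 26 of the intertidal turban snail Chlorostoma (Tegula) funebralis are described here across 4 Californian shores and 2 treatments. They are 2 contigs of 15903 in the deposited table, SR_contig_806_C3.1, named heat shock protein 90 there, and SR_contig_5896_C3.1, named small heat shock protein 26. They were picked by identifier, with their rise under heat already known, so their heat response is given as a description with no test. Both passed the filter on low values, which kept 14444 contigs.

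Snails came from Slide Ranch and Pigeon Point in northern California and from Aliso Beach and La Jolla in southern California. Control snails were held in air at 15 °C for 5.5 h, and heated snails were warmed in air from 15 °C by steps of 3 °C to 34 °C, where they stayed for 2 h 20 min. Each of the 8 combinations of site and treatment had 2 libraries, made from RNA of ground whole animals and sequenced as paired reads. RNA was extracted from individuals, per the labels' protocols, but how many individuals entered 1 library is not stated, so every p-value below rests on library-to-library spread, which may be technical. Values are normalised read counts, that is, reads per contig divided by a scaling factor for the library. They carry no contig length, so levels are compared between libraries and not between genes.

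HSP90 is an abundant cytosolic chaperone that uses ATP to hold and release signalling proteins such as kinases and steroid receptors, helped by a set of co-chaperones. Small heat shock proteins form large assemblies, bind unfolding proteins without using ATP and pass them on to HSP70 for refolding. In animals the genes of both families are switched on by heat shock factor, and in intertidal molluscs their transcripts are known to rise after hot low tides. The gene names of both contigs come from the deposited table, and no sequence was used here to check them.

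Library totals ran from 17594009 to 26103215 reads. In 4 libraries, the first control and the first heated library of Pigeon Point and of La Jolla, a single contig, SR_contig_83, took 16.6% to 39.2% of reads, against 1.58% to 6.80% in the other 12, and results below are also given without those 4. Whole-animal RNA mixes tissues, so fewer cells of a type and less RNA per cell cannot be told apart. Markers of muscle, ovary and egg, testis and sperm, digestive gland, nerve and blood were all detected, with no listed contig at 0 in every library.

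HSP90 rose in heated snails at every site. In controls it was at 6989 and 5146 normalised counts at Slide Ranch, 9214 and 6195 at Pigeon Point, 8678 and 7058 at Aliso Beach, and 7470 and 6540.0 at La Jolla. In heated snails it was at 112778 and 117654 at Slide Ranch, 118805 and 88738 at Pigeon Point, 73985 and 76829 at Aliso Beach, and 75667 and 70999 at La Jolla. The lowest heated library, at La Jolla, was far above the highest control, at Pigeon Point, so the treatments did not overlap. The share of all contigs that separate by treatment in this way was not computed, here or for the contigs below. Among the heated libraries, all 4 southern ones lay below all 4 northern ones, whereas control values of the regions overlapped.

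Averaged over the 8 libraries of a treatment, HSP90 went from 7161 ± 1311 normalised counts (SD, n = 8) to 91932 ± 20981 (SD, n = 8), a ratio of 12.8. Heated means were 109494 ± 14082 in the north and 74370.3 ± 2532 in the south (SD, n = 4 each). Control means were 6886 ± 1726 in the north and 7436 ± 911 in the south (SD, n = 4 each). Site by site, the ratio of the heated to the control mean was 19.0 at Slide Ranch, 13.5 at Pigeon Point, 10.5 at La Jolla and 9.58 at Aliso Beach. The contig's share of all recovered reads was 0.0292% to 0.0521% in controls and 0.153% to 0.603% in heated libraries, the lowest heated share being that of La Jolla heat 1, where SR_contig_83 took 39.2% of reads.

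**Figure D1:**
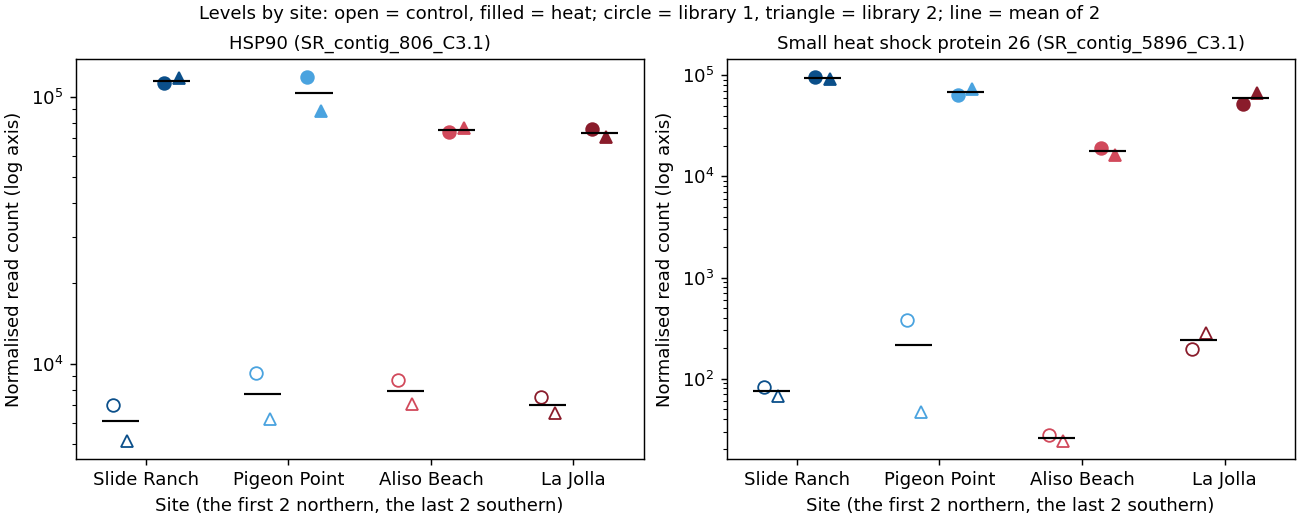
Normalised read counts of HSP90 (left) and small heat shock protein 26 (right) at the 4 sites, on log axes that differ between panels. Open symbols are controls, filled symbols heated snails, circles the first and triangles the second library, and bars the mean of 2; the heated HSP90 values of both southern sites lie below those of both northern ones, and small heat shock protein 26 is lowest at Aliso Beach in both treatments.

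Small heat shock protein 26 was low in controls and abundant after heating. Its controls stood at 81.8 and 67.9 normalised counts at Slide Ranch, 379 and 46.4 at Pigeon Point, 27.5 and 24.4 at Aliso Beach, and 198 and 285 at La Jolla. Heated libraries stood at 95610.1 and 92819 at Slide Ranch, 63155 and 72712 at Pigeon Point, 19068 and 16195 at Aliso Beach, and 52089 and 66595 at La Jolla. Both Aliso Beach libraries were the lowest of their treatment, in controls and after heating, and treatments did not overlap anywhere. The Pigeon Point controls differed 8.17-fold from each other, the first being one of the 4 libraries that stand apart.

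Its mean went from 139 ± 134 normalised counts in controls to 59780.3 ± 29801 after heating (SD, n = 8 each), a ratio of 431. The heated mean at Aliso Beach was 17631 ± 2031 (SD, n = 2), against 73830.0 ± 17177 over the 6 heated libraries of the other sites (SD, n = 6). In controls the Aliso Beach mean was 25.9 ± 2.15 (SD, n = 2), and the other 6 libraries averaged 176 ± 135 (SD, n = 6). Aliso Beach was low in both treatments, and its ratio was 679.9, against 1259 at Slide Ranch, 319 at Pigeon Point and 246 at La Jolla. The Pigeon Point ratio rests on 1 of its controls. The control values rest on 29 to 335 reads a library. In Aliso Beach control 2 the 29 reads were 0.000151% of the library (95% Wilson interval 0.000105% to 0.000216%, counting error only).

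On the log2 scale, with a pseudocount of 1, the heat effect of HSP90 averaged over the sites was 3.67 ± 0.13 (SE, 95% interval 3.38 to 3.96). It was 4.01 in the north and 3.33 in the south, each with an SE of 0.19, and 4.26 at Slide Ranch, 3.76 at Pigeon Point, 3.39 at La Jolla and 3.27 at Aliso Beach, each with an SE of 0.26. That of small heat shock protein 26 was 9.14 ± 0.34, with 9.63 in the north and 8.65 in the south (SE 0.47 each). At the sites it was 10.28 at Slide Ranch, 9.35 at Aliso Beach, 8.98 at Pigeon Point and 7.95 at La Jolla (SE 0.67 each). The order of sites for small heat shock protein 26 depends on the Pigeon Point controls, since the effect there was 10.48 without control 1, above that at Slide Ranch, and 7.48 without control 2. Without the 4 libraries that stand apart the averaged effects were 3.70 for HSP90 and 9.52 for small heat shock protein 26, and the latter was 10.58 at Pigeon Point.

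Among all 14444 contigs fitted in limma, heat changed 613 (4.24%) at an adjusted p under 0.05, of which 301 rose (2.08%) and 312 fell (2.16%). Both members are among them by the way they were picked. By size of the averaged log2 effect, small heat shock protein 26 ranked 5 and HSP90 ranked 43. The neighbours of HSP90 in that order were an activator of the HSP90 ATPase, SR_contig_98140, at 3.70 and an inhibitor of apoptosis contig, SR_contig_4364, at 3.63. Those of small heat shock protein 26 were an HSP70 contig, SR_contig_12347_C3.1, at 9.71 and the unnamed SR_contig_9080_C3.1 at 8.69.

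**Figure D2:**
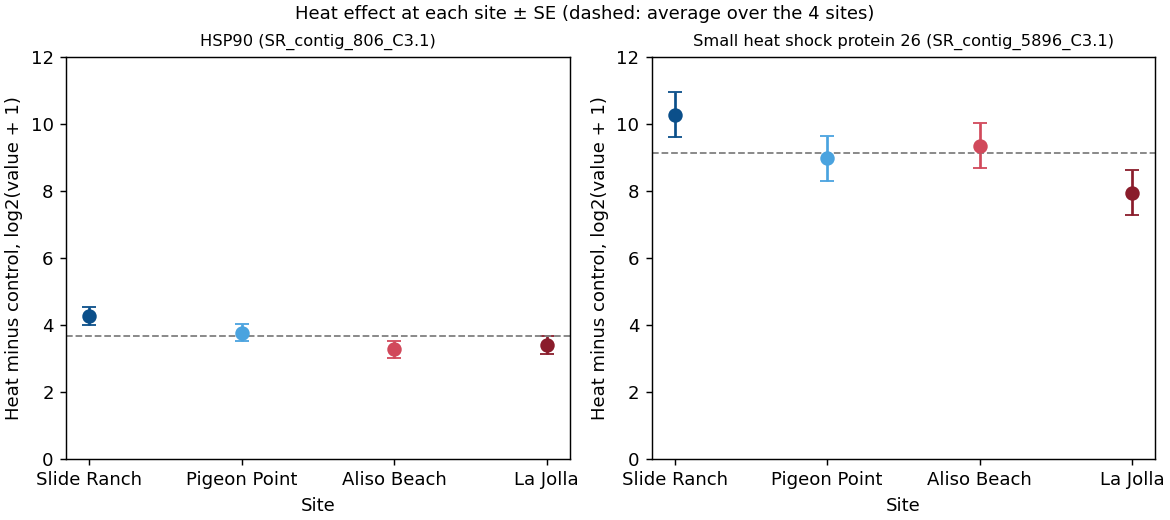
Heat effect (heated minus control, log2(value + 1), on 1 shared axis scale) of HSP90 (left) and small heat shock protein 26 (right) at each site; points are estimates from the fit over all 16 libraries, bars their SE, and the dashed line the average over the 4 sites (3.67 and 9.14). HSP90 runs from 3.27 at Aliso Beach to 4.26 at Slide Ranch, and small heat shock protein 26 from 7.95 at La Jolla to 10.28 at Slide Ranch.

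The regional design asks whether northern and southern snails differ before heating, after heating and in their response. Heated HSP90 was lower in the south, by a log2 difference (south minus north) of -0.55 ± 0.19 (95% interval -0.96 to -0.14). The exact two-sided permutation test of the 4 southern against the 4 northern heated libraries gave p = 0.0286, the smallest that 4 against 4 allows, in 1 of 4 such tests made for the 2 contigs. Each region had 2 sites, whose libraries this test treats as exchangeable, so its p does not measure spread between sites. In limma, over all contigs, the raw p was 0.0125 and the Benjamini-Hochberg adjusted p was 0.192, so the regional difference did not pass there. At this threshold 168 contigs (1.16%) differed between the regions after heating, 110 higher (0.762%) and 58 lower (0.402%) in the south. Southern values lay entirely below northern ones in 469 contigs (3.25%), HSP90 included, and did not overlap in either direction in 7.41%. In the 12 libraries left after removing the 4 that stand apart, the difference was -0.47 in limma, which weights sites equally. With libraries weighted equally it was -0.51 (exact permutation p = 0.1, the smallest then possible).

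In controls HSP90 did not differ detectably between regions, and its values overlapped, as those of all but 6.27% of contigs did. The log2 difference, south minus north, was 0.14 ± 0.19 (95% interval -0.27 to 0.54, limma adjusted p = 0.982, exact permutation p = 0.486), while 38 contigs (0.263%) passed. The heat effect was smaller in the south by -0.68 ± 0.26 (95% interval -1.26 to -0.11), with a raw limma p of 0.0236 and an adjusted p of 1.0. No contig of 14444 (0%) passed for this interaction in limma, edgeR or DESeq2, and 197 had an unadjusted p under 0.05 in limma. Within regions the sites were close for HSP90, with heated log2 differences of -0.17 for Pigeon Point minus Slide Ranch (95% interval -0.74 to 0.41, limma adjusted p = 0.767) and -0.04 for La Jolla minus Aliso Beach (-0.62 to 0.53, adjusted p = 0.95). Between the northern sites 37 heated contigs passed (0.256%). These intervals do not show that the sites were alike.

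For small heat shock protein 26 the southern sites lay apart from each other. Heated La Jolla snails were above heated Aliso Beach snails by a log2 difference of 1.74 ± 0.67 (95% interval 0.27 to 3.22, limma adjusted p = 0.699). Control La Jolla snails were above control Aliso Beach snails by 3.15 ± 0.67 (1.68 to 4.62, limma adjusted p = 0.217). Neither difference passed over all contigs, of which 21 (0.145%) passed between these sites after heating and 20 (0.138%) in controls. The difference in heat effect between them, La Jolla minus Aliso Beach, was -1.40 (95% interval -3.48 to 0.68).

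These tests of small heat shock protein 26 turn on the Pigeon Point controls. That pair held 93.8% of the contig's residual sum of squares, and its residual SD of 0.775 on the log2 scale was above that of 80.5% of contigs (median 0.450). For HSP90 the residual SD was 0.229, above that of 14.2% of contigs. Leaving out either Pigeon Point control leaves the differences between La Jolla and Aliso Beach at 1.74 after heating and 3.15 in controls. It only removes that pair's spread from the fit, so the smaller p-values that followed in limma add no support. Without control 1, for example, the SE of the heat effect at La Jolla was 0.23, against 0.67. In the 12 libraries that do not stand apart the differences were 1.92 (adjusted p = 0.00122) and 3.41 (adjusted p = 1.74e-05) in limma, with 0.478% of contigs called in each. In DESeq2 on all 16 libraries the control difference had an adjusted p of 6.1e-04, and 0.519% of contigs passed.

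Between regions, heated small heat shock protein 26 had a log2 difference, south minus north, of -1.31 ± 0.47 (95% interval -2.35 to -0.27, limma adjusted p = 0.223, exact permutation p = 0.0571). In the 12 libraries it was -1.27 (limma adjusted p = 0.00177), where 9.37% of contigs passed, and without Pigeon Point control 1 the adjusted p was 0.00682, where 1.31% did. In those 12 libraries, heated Pigeon Point and heated La Jolla had 1 library each, whose spread limma borrowed from the rest. Weighting the same 12 libraries equally gave -1.66 (exact permutation p = 0.1, the smallest then possible), so the small limma p was not matched there. Aliso Beach held the low southern values, and without that site alone the difference was -0.44 (exact permutation p = 0.267). Aliso Beach lay below the other 6 heated libraries in 7.15% of contigs, below the other 6 controls in 6.78%, and below both in 330 contigs (2.28%), this one among them.

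In controls the regional difference of small heat shock protein 26 had no stable direction. It was -0.33 ± 0.47 on the log2 scale (95% interval -1.37 to 0.71, limma adjusted p = 0.988, exact permutation p = 0.800), and 0.55 in the 12 libraries (limma adjusted p = 0.0413), where 4.17% of contigs passed. That fit weights sites equally, and when the same 12 libraries were weighted equally the difference was -0.13 (exact permutation p = 1.0, with 0.1 the smallest possible). Without Pigeon Point control 2 alone it was -1.08. The heat effect was smaller in the south by -0.98 ± 0.67 (95% interval -2.45 to 0.49, limma adjusted p = 1.0). In the 12 libraries it was smaller by -1.83 (limma adjusted p = 0.0117), 1 of 2 contigs (0.0138%) that passed for the interaction there. Without Pigeon Point control 1 alone it was -1.73 (limma adjusted p = 0.403), and without control 2 alone -0.23, with effects of 8.88 in the north and 8.65 in the south.

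No tissue marker of the 6 lists passed between the southern sites in limma, in controls or after heating, but several summed levels did not overlap between them. With 2 libraries a site and treatment this is common by chance, and its frequency over all contigs was not computed. After heating, the 41 testis and sperm markers summed to 26644 to 30111 normalised counts at Aliso Beach and 19069 to 22441 at La Jolla. The 26 digestive gland markers summed to 804168 to 822463 at Aliso Beach and 848291 to 1315252 at La Jolla, and the 35 nerve markers to 19890.1 to 20406 and 20428 to 25885. Heated sums of the muscle, ovary and blood lists overlapped between these sites.

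Among southern controls, Aliso Beach was above La Jolla in summed muscle markers, at 174822 to 199747 against 105122 to 158936, and in ovary and egg markers, at 442191 to 455030 against 330046 to 384681. It was below La Jolla in nerve markers, at 18009.7 to 19397 against 20497 to 22893. Between heated regions 2 of 23 ovary and egg markers were higher in the south, where 0.762% of all contigs were, with a summed level of 272611 to 552831 for northern and 413287 to 671505 for southern heated libraries. Between control regions 1 of the 23 was higher in the south, where 0.152% of all contigs were, and the sums did not overlap, at 206381 to 299383 for northern and 330046 to 455030 for southern controls. Their part in the levels of HSP90 and small heat shock protein 26 was not tested.

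**Figure D3:**
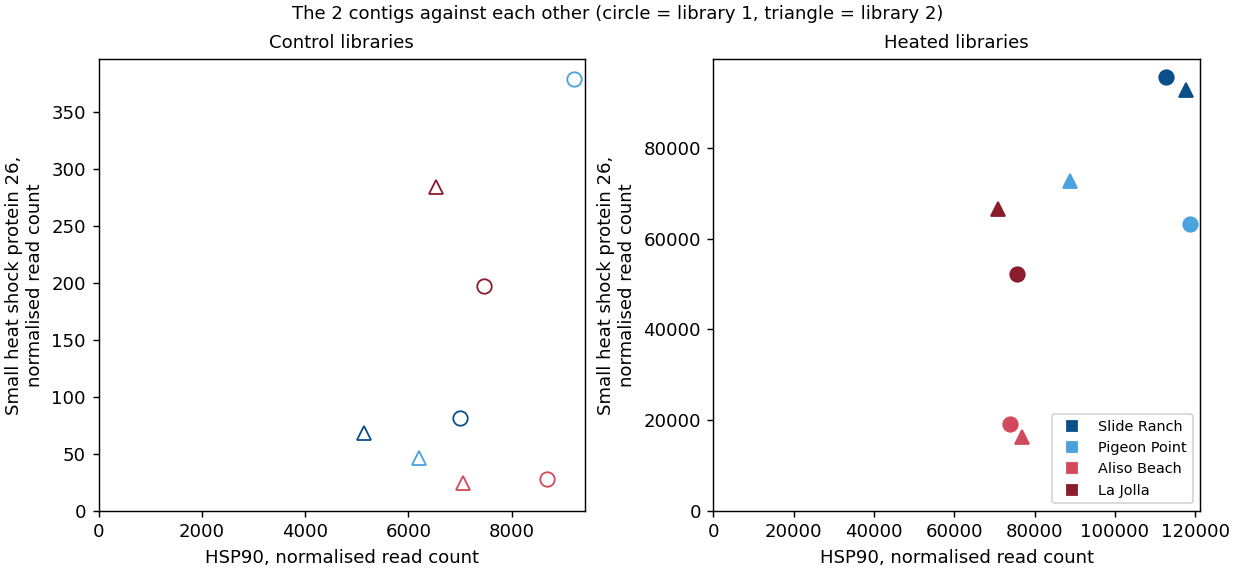
Small heat shock protein 26 (vertical axis) against HSP90 (horizontal axis), both as normalised read counts, in the 8 control (left) and 8 heated libraries (right); colours mark sites, circles and triangles the first and second library. The heated Aliso Beach libraries lie apart at 16195 and 19068 for small heat shock protein 26, with HSP90 near that of La Jolla.

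No relation between the levels of the 2 contigs was detected within a treatment. Across the 8 controls Pearson's r was 0.20 (exact permutation p = 0.624) and Spearman's rho 0.19 (exact p = 0.665), and r was -0.32 without the 2 libraries farthest from the median of HSP90. Across the 8 heated libraries r was 0.62 (exact permutation p = 0.114) and rho 0.45 (exact p = 0.267). The heated Aliso Beach pair lies apart there, as the plot of one contig against the other shows. Over the 6 heated libraries of the other sites, r was 0.63 (exact permutation p = 0.199) and rho 0.26 (exact p = 0.658), and r was 0.20 without the 2 farthest. The 2 libraries of each site share its source, and over the 6 relations computed no adjusted p was under 0.535.

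Contigs matched by name as HSP90 co-chaperones responded in part, and the match took in FK506-binding isomerases whose link to HSP90 was not checked. Of the 16 tested contigs of this list, 7 rose under heat and none fell in limma, where 2.08% of all contigs rose. Their median log2 effect was 0.54, against 0.00072 over all tested contigs. In the 12 libraries 9 of the 16 rose, as did 10.6% of all contigs. The largest rises were of the adaptor between HSP70 and HSP90 (stress-induced-phosphoprotein 1, SR_contig_25806), the activator of the HSP90 ATPase, the myosin chaperone UNC-45 and the adaptor SGT1.

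Stress-induced-phosphoprotein 1 went from 3.44 ± 2.97 normalised counts in controls, where some libraries were at 0, to 98.2 ± 24.7 after heating (SD, n = 8 each). Its log2 effect was 4.85 ± 0.49 (limma adjusted p = 8.5e-05), a size that depends on the pseudocount. A second contig of that name, SR_contig_22372, rose by 1.38, and reads could be shared between contigs of 1 name. The activator of the HSP90 ATPase, which speeds the chaperone's cycle, had 663.8 to 956 normalised counts in 6 of the heated libraries, and 3060.3 and 2302 in the first heated libraries of Pigeon Point and La Jolla. Its controls ran from 45.7 to 141, so the treatments did not overlap, and its log2 effect was 3.70 ± 0.37 (limma adjusted p = 7.5e-05), or 3.55 without the 4 libraries. HSP90 itself was at 118805 and 75667 in those heated libraries, against 88738 and 70999 in the second heated libraries of the same sites.

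UNC-45, which folds myosin together with HSP90, held 128 to 346 normalised counts in controls and 923 to 1914 in heated libraries, and rose by 2.50 ± 0.16 on the log2 scale (limma adjusted p = 1.5e-06). SGT1 held 369 to 655 in controls and 1046 to 1947 after heating, and rose by 1.40 ± 0.16 (limma adjusted p = 2.0e-04). Contigs named as PPIase D-like (SR_contig_1914_C3.1) and FKBP8 (SR_contig_11615), both immunophilin-type isomerases, rose by 1.02 and 0.91. The 9 contigs that did not pass, most of them FK506-binding isomerases, had effects from -0.25 to 0.63. HSP90 itself, at 3.67, was exceeded by stress-induced-phosphoprotein 1 (SR_contig_25806, 4.85) and, well within its SE, by the activator of the HSP90 ATPase (3.70 ± 0.37).

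**Figure D4:**
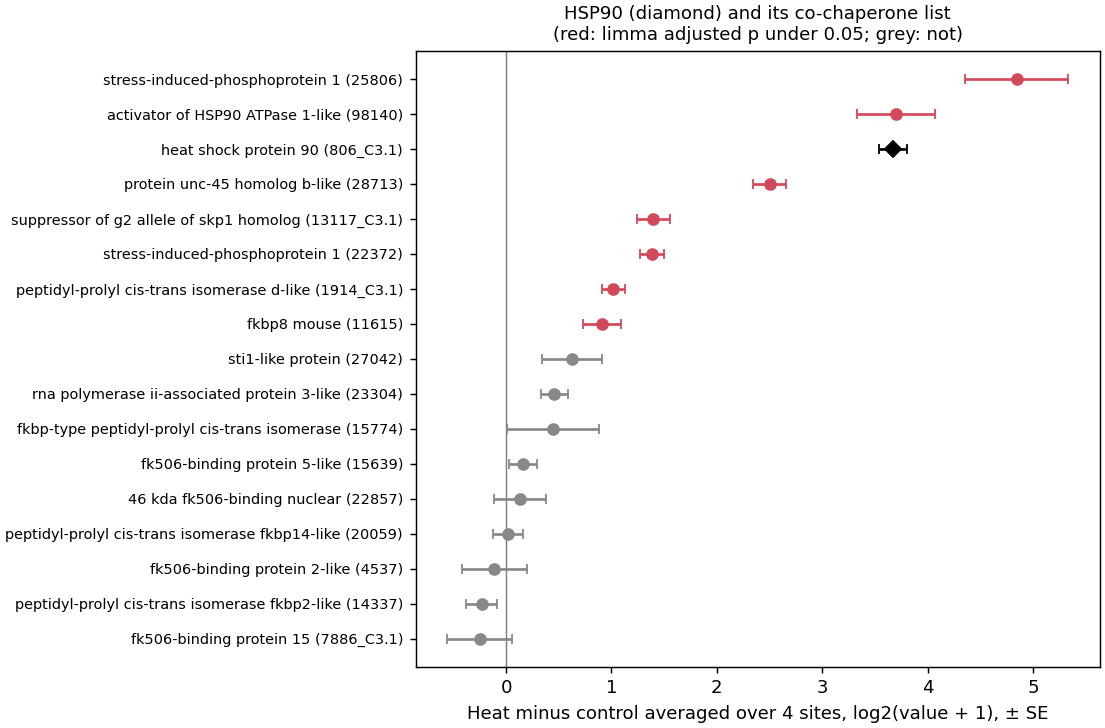
Heat effect averaged over the 4 sites (horizontal axis, log2(value + 1), bars ± SE) for HSP90 (black diamond) and the 16 contigs of the name-matched co-chaperone list (numbers are contig identifiers). Red points passed an adjusted p of 0.05 in limma and grey ones did not. The 7 red points lie between 0.91 and 4.85, and the 9 grey ones between -0.25 and 0.63.

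Kinases and receptors of the kinds that HSP90 keeps active included a pair that fell. Of 14 such contigs 13 were tested, none rose and 2 fell in limma, where 2.16% of all contigs fell. Their median log2 effect was -0.32, or -0.07 over the 11 with a mean of at least 50. Wee1, a kinase that holds back entry into mitosis, fell from 192 to 75.3 mean normalised counts, by 1.48 ± 0.20 on the log2 scale (limma adjusted p = 0.00102). Src42A, a Src-type tyrosine kinase, fell from 364 to 189, by 0.95 ± 0.16 (limma adjusted p = 0.00375). Control values were 124 to 224 for Wee1 and 269 to 457 for Src42A. Heated values were 33.9 to 139.9 and 137 to 253, so the treatments overlapped for Wee1 and not for Src42A. The share of all contigs without such overlap was not computed. In the 12 libraries 1 contig of the 13 rose and 3 fell, where 10.6% and 8.22% of all contigs did, and with a term for the 4 libraries 1 rose and 5 fell.

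The 1 contig found for the heat shock factor list, a binding protein that restrains the factor (SR_contig_5522), ran from 2437 to 3423 normalised counts in controls and from 2496 to 4769 after heating. The treatments overlapped, and the log2 effect of 0.23 ± 0.12 did not pass (limma adjusted p = 0.348).

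Small heat shock protein 26 was 1 of 3 small heat shock protein contigs, and the other 2 rose in limma, where 2.08% of all contigs did. SR_contig_1049_C3.1 had control values of 7194 and 8967 normalised counts at Slide Ranch, 20997 and 6228 at Pigeon Point, 8219 and 8702 at Aliso Beach, and 16483 and 8420 at La Jolla. After heating they were 181342 and 180398, 341300 and 171095, 115796 and 114799, and 340171 and 155341, in the same order of sites. The 4 libraries that stand apart were the highest of their treatment here, which was not so for heated small heat shock protein 26, and the averaged log2 effect was 4.24 ± 0.28 (limma adjusted p = 2.4e-06), or 4.31 without them.

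SR_contig_10392_C3.1 ran from 596 to 2736 normalised counts in controls and from 29771 to 83404 after heating, again highest in those 4 libraries. Its log2 effect was 5.46 ± 0.31 (limma adjusted p = 6.0e-07), or 5.64 without them. Between heated La Jolla and Aliso Beach, the log2 difference was 0.40 for it (limma adjusted p = 0.793) and 0.996 for SR_contig_1049_C3.1 (adjusted p = 0.699), against 1.74 for small heat shock protein 26. A test of whether these 3 differ was not made.

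HSP70, to which small heat shock proteins hand on their cargo, had the contig most like small heat shock protein 26. Likeness was the root mean square difference of centred log2 values over the 16 libraries, among 11325 contigs with a mean of at least 50, and treatment makes up most of the pattern. SR_contig_12347_C3.1, an HSP70, came nearest at 0.582, against a median of 4.73 over all contigs, followed by the unnamed SR_contig_9080_C3.1 at 0.855, the BiP-like SR_contig_18099_C3.1 at 1.12, the heat shock protein SR_contig_18769_C3.1 at 1.22 and the HSP70 SR_contig_18771_C3.1 at 1.23. The first of these held 148 and 106 normalised counts in Slide Ranch controls, 632 and 88.0 in Pigeon Point, 51.9 and 59.8 in Aliso Beach, and 255 and 465.9 in La Jolla controls. As for small heat shock protein 26, Pigeon Point control 1 and both La Jolla controls were highest and both Aliso Beach controls lowest. Since this HSP70 contig was chosen for closeness over the same libraries, it gives no separate support for that order.

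**Figure D5:**
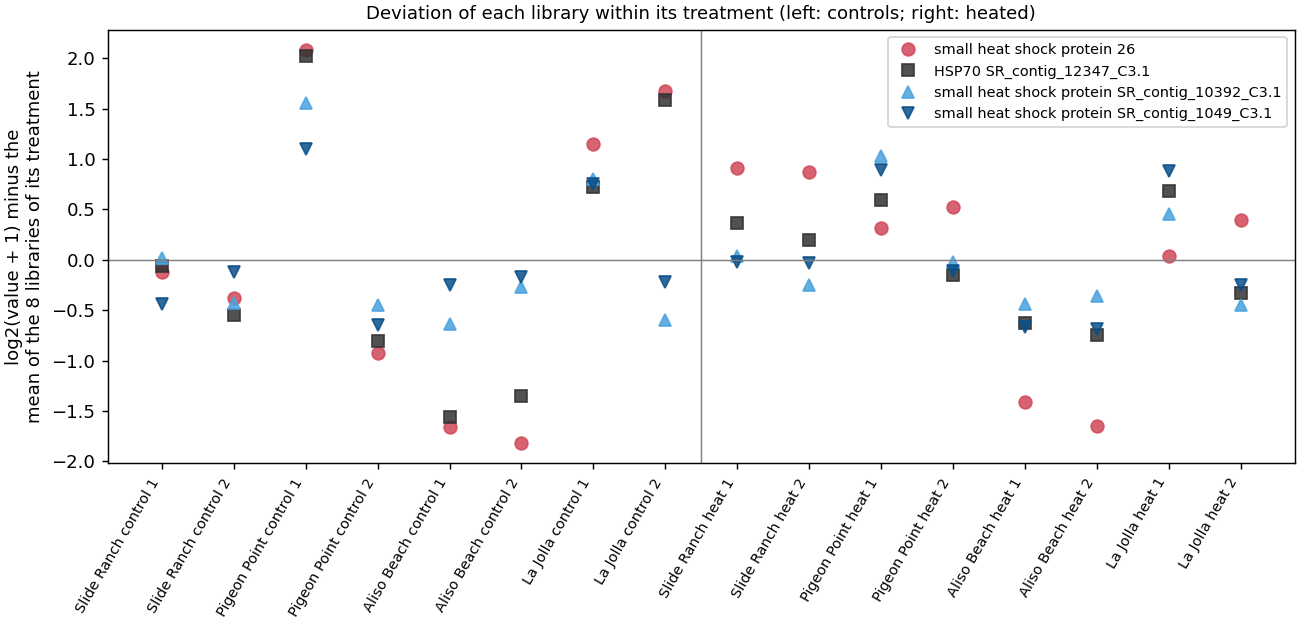
Deviation of each library from the mean of the 8 libraries of its treatment (log2(value + 1)) for small heat shock protein 26, the HSP70 contig nearest to it and the other 2 small heat shock protein contigs; controls are left of the line and heated libraries right. In controls, small heat shock protein 26 and HSP70 lie close together in each library, and after heating small heat shock protein 26 is the lowest of the 4 contigs at Aliso Beach.

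After heating SR_contig_12347_C3.1 ran from 77939 normalised counts in an Aliso Beach library to 209717 in La Jolla heat 1. Its log2 effect was 9.71 ± 0.35 (limma adjusted p = 8.2e-09). Of 8 tested contigs named for HSP70, HSP110 or their partners, 6 rose and none fell in limma, where 2.08% of all contigs rose, with a median of 4.60. The largest was SR_contig_18771_C3.1 at 10.44, and after SR_contig_12347_C3.1 came an HSP70-binding co-chaperone, SR_contig_16467_C3.1, at 6.46 and a further HSP70, SR_contig_5144, at 6.27. Contigs of 1 name may be copies of 1 family between which reads could be split.

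The contigs most like HSP90 were of other kinds. Nearest were a pair named for the baculoviral IAP repeat, a domain of inhibitors of cell death, SR_contig_3493_C3.1 at 0.237 and SR_contig_4364 at 0.301, against a median of 1.90 over all contigs. They were followed by DNAJA1 (SR_contig_42313) at 0.303, a J-domain partner of HSP70, sequestosome (SR_contig_976_C3.2) at 0.341, a receptor that brings tagged proteins to autophagy, and the unnamed SR_contig_31288 at 0.350. DNAJA1 ran from 392 to 712 normalised counts in controls and from 7555 to 12809 after heating, a log2 effect of 4.15 ± 0.11 (limma adjusted p = 5.0e-10).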

How the data were processed

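Each deposited value is a signal unit, reads per contig divided by a size factor per library. CASAVA and DESeq are named, with no version, per the submitters' processing notes; for the assembler and the mapper, the answer is not given in the sources used here. Dividing by the smallest step of each column gave whole reads for 100.0% of values within 0.01 read. No genome or contig sequence was used.

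The limma model (version 3.58.1, in R 4.3.3) took log2(value + 1) with a trended variance and 1 mean per site and treatment, all 16 libraries sharing the spread, for contigs with a mean of at least 10. P-values were adjusted by Benjamini-Hochberg over all tested contigs at 0.05. Regional levels were also compared by exact permutation of libraries, which leaves their grouping by site out of account. EdgeR 4.0.16 and DESeq2 1.42.0 on recovered reads called 626 and 1313 contigs for heat. Further alternatives changed the pseudocount to 0.5 or 5, dropped the filter or set it at 50, used TMM, robust shrinkage, a replicate block or only the libraries compared, or left out each library in turn. Chosen after seeing the data were fits that drop the 4 libraries that stand apart, give them a term, or drop a site. A group left with 1 library borrows its spread from the rest. The fit was tested on simulated data.

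The members and the lists, matched on contig names and with misnamed matches such as chordins removed after matching, were chosen with earlier results of these data known. Named contigs were both members, all small heat shock protein and heat shock factor contigs, the 4 largest rises and 2 largest falls of other lists, and the 5 nearest contigs by likeness. SR_contig_83, SR_contig_22372, SR_contig_1914_C3.1 and SR_contig_11615 were named after their values were seen.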

Additional observations from a re-analysis of the deposited data

Results flagged for a closer look

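Dixon's 95% limit was applied in 30 groups of 4 or 8 libraries, those of 8 holding both regions of a treatment. It was passed by 7 values, all in regional groups of 4 libraries. Chance flags about 1 in 20 groups, but these groups overlap, so they are not independent. All 7 are from first libraries of Pigeon Point or La Jolla, which are among the 4 in which SR_contig_83 stands apart. Small heat shock protein 26 was at 379.0 normalised counts in Pigeon Point control 1, with 81.8 the next highest northern control. SR_contig_10392_C3.1, another small heat shock protein, was at 2736 in the same library (next 939.9), at 83404 in Pigeon Point heat 1 (next 41680.2) and at 55838 in La Jolla heat 1 (next 31831). SR_contig_1049_C3.1, the remaining one, was at 16483 in La Jolla control 1 (next 8702) and at 341300 in Pigeon Point heat 1 (next 181342). The heat shock factor-binding protein contig SR_contig_5522 was at 4769 in La Jolla heat 1 (next 2851). No HSP90 value was among them.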

How the results depend on the processing

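The heat effect kept its direction for both contigs under every alternative, from 3.60 to 3.74 for HSP90 and 8.77 to 9.52 for small heat shock protein 26 when 1 library was left out. Log2 differences are south minus north or as named. Leaving out 1 library moved the control difference of HSP90 from -0.0073 to 0.28 and that of small heat shock protein 26 from -1.08 to 0.42. The interaction of small heat shock protein 26 ran from -1.73 to -0.23, and its heat effect at Pigeon Point from 7.48 to 10.48. The heated difference of small heat shock protein 26 ran from -1.40 to -1.22, and those of HSP90 from -0.38 to 0.045 (Pigeon Point minus Slide Ranch) and from -0.087 to 0.0052 (La Jolla minus Aliso Beach). The difference in heat effect ran from -0.027 to 0.27 for HSP90 (La Jolla minus Aliso Beach). For small heat shock protein 26, Pigeon Point minus Slide Ranch ran from -0.67 to 2.33 in controls and from -2.81 to 0.20 for the heat effect. Counts of called contigs ran from 403 to 1097 for heat, 10 to 51 for controls and 23 to 351 for heated regions. Without the 4 libraries that stand apart, small heat shock protein 26 had -1.83 for the interaction, 0.55 in controls, -1.27 in heated snails, -0.67 for Pigeon Point minus Slide Ranch in controls and 0.30 for that heat effect. Without Pigeon Point its control difference was 0.084 and its heated one -1.55, without Aliso Beach the control one was 1.24, and without Slide Ranch the HSP90 control difference was -0.031. With a term for the 4 libraries heated HSP90 stayed at -0.55 (limma adjusted p = 0.0151). Heat calls, 613 in the fit reported, were 1313 in DESeq2, 2712 without the 4, 3531 with the term, 267 without Slide Ranch and 294 without Aliso Beach. Control calls, 38, were 336 in DESeq2, 8 with only the libraries compared, 602 without the 4, 785 with the term, 5 without Slide Ranch, 71 without Pigeon Point and 3 without Aliso Beach. Heated calls, 168, were 785, 9, 1354, 2019, 9, 322 and 6 in the same settings, and the interaction gave 2 without the 4. The client list had 1 rise without the 4 and with the term, and 5 falls with the term. The cause of these shifts was not tested. A replicate block gave 71 control and 282 heated calls, and for heated HSP90 an adjusted p of 0.0963 in limma. In the labels, libraries of different groups share only a number. Deviations of first libraries from their group means correlated above 0.1 in 10 of 28 pairs of groups (range -0.119 to 0.694). Between control and heat of the same site the correlation was 0.694 at Pigeon Point and 0.644 at La Jolla. It was 0.103 at Aliso Beach and -0.059 at Slide Ranch. For the averaged heat effect and the interaction, all libraries are compared, so a fit of only the libraries compared is the fit reported. With 2 libraries a group and 29 to 335 reads in controls, baseline differences of small heat shock protein 26 are the least precise.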

Other observations

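Among control libraries, the heat shock protein contig SR_contig_18769_C3.1, which shares its likeness list with small heat shock protein 26, was at 519.9 normalised counts in Pigeon Point control 1, 449 in La Jolla control 2 and 109 in La Jolla control 1. The other 5 controls ran from 30.7 to 42.9. After heating it ran from 130043 at Aliso Beach to 249849 at Slide Ranch, and both Slide Ranch libraries were above all others.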
